A study of Mus musculus with 9 samples.

Results

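The subunits of the mitochondrial respiratory chain and of ATP synthase were followed through the response of bone and bone marrow to castration. Members were features of the array annotated to a single gene whose symbol names a subunit of complex I (Ndufa, Ndufb, Ndufc, Ndufs, Ndufv), complex II (Sdha to Sdhd), complex III (Uqcr and Cyc1), complex IV (Cox4 to Cox8), complex V (Atp5) or cytochrome c (Cycs), with a value on at least 2 arrays of each group. The rule took no ratio into account. It found 71 features of 53 genes, and 70 features of 52 genes were kept, out of 7170 genes and unnamed features tested. Ndufv3 was left out because it had a value on too few arrays. The 52 genes were 19 of complex I, 2 of complex II, 8 of complex III, 9 of complex IV, 13 of complex V and Cycs. A further 9 features that name such a gene together with other genes were not used.

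Each array set the RNA of a castrated C57BL/6 mouse against that of its sham-operated partner on 1 dual-channel array, with 3 arrays, each from a separate pair of mice, in each of 3 groups. The old group held specimens labelled bone marrow from mice of 59 weeks, the young bone group held bone of mice of 17 weeks, and the young marrow group held bone marrow of mice of 17 weeks. The castrated mice of every group had been operated at 7 weeks. No group carried a transgene or other treatment in the labels, and every group was C57BL/6. The limb bones were the source, and marrow was described as split from bone for the young mice, so whether the old specimens also held bone is not stated. Nor do the labels say whether 1 set of young mice gave both the bone and the marrow.

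Values are log2 ratios, as read here, of castrated over sham, so that a value below 0 means less RNA in the castrated mouse. The sources used here do not state which channel is on top of the ratio. The labels describe every array as castrated against sham, which makes castrated over sham on every array the likely reading. On 3 arrays, old replicate 2, young bone replicate 3 and young marrow replicate 2, the castrated mouse was labelled with Cy3, and if the deposited value were Cy5 over Cy3 the signs of these arrays would turn. As deposited, the median of B lymphocyte markers was above 0 on every array, at 0.915, 0.875 and 0.895 on these 3. That of granulocyte markers was below 0 on every array, at -0.65, -0.375 and -0.56 on these 3. As castrated over sham both lists thus kept 1 sign across dye orientations, and as Cy5 over Cy3 they would not. Calls and the main medians are given under both readings. Counts by range or by sign on every array, and values of single arrays, are given as castrated over sham only. Arrays carried 8290 to 10995 values each. Old replicate 1 had the widest spread over features (SD 0.454), and the other arrays had SDs from 0.192 to 0.294. The median over all rows was -0.11 on old replicate 1 and between -0.02 and 0.01 on the other arrays. Arrays are whole tissue measurements, in which fewer cells of a type and less RNA per cell cannot be told apart.

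Complexes I to IV pass electrons from NADH and succinate to oxygen in the inner mitochondrial membrane, and complexes I, III and IV pump protons that ATP synthase (complex V) uses to make ATP. Coenzyme Q carries electrons between the first complexes and complex III, and cytochrome c carries them from complex III to complex IV. Bone-forming cells, osteoclasts, erythroid precursors and muscle are users of this pathway, while neutrophils are known to rely largely on glycolysis. A few core subunits are encoded by the mitochondrial genome. None of these was tested here (0 of 13). Of the nuclear core subunits of complex I only Ndufv1, which binds NADH, was among the genes tested. The complex I values thus describe mostly its nuclear accessory subunits.

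Promoters of nuclear respiratory genes are known to share sites for nuclear respiratory factor 1 (NRF1), the ETS factor GABP, YY1, SP1 and estrogen-related receptors. Promoters (250 bases before to 50 bases after the start of a gene, RefSeq, build GRCm38.p6) were found for 42 of the 52 genes, as 47 sequences. Those of 4 genes are printed because the genes have the smallest p of complex IV (Cox7a2), of complex II (Sdhb) and of complex I in the old group (Ndufb4) and in both young groups (Ndufa9). Letters are on the strand of the gene, and capitals mark matches, on either strand, to GCGCANGCG (NRF1), CCGGAAG (ETS), AAGATGGC (YY1), GGGCGG (SP1) or TNAAGGTCA (estrogen-related receptors).
Cox7a2, chr9:79759804-79760103, minus strand: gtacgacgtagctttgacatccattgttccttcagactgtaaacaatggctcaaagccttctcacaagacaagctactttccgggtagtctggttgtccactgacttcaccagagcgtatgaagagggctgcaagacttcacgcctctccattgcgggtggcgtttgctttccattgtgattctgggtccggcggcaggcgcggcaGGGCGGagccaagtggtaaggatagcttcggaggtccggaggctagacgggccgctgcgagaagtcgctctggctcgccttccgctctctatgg
Ndufb4, chr16:37654319-37654618, minus strand: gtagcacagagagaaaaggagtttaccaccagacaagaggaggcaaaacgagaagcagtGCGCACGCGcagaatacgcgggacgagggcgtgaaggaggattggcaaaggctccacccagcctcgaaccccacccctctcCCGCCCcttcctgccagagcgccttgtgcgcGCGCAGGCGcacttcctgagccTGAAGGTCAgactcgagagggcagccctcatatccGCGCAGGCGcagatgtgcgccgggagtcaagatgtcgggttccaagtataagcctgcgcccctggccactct
Sdhb, chr4:140961021-140961320, plus strand: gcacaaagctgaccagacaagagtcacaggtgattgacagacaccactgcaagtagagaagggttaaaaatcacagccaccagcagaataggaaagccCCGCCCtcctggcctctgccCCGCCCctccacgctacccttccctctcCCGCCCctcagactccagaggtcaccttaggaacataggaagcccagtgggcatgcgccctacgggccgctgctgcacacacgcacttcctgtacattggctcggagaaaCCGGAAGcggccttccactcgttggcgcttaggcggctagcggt
Ndufa9, chr6:126849095-126849394, minus strand: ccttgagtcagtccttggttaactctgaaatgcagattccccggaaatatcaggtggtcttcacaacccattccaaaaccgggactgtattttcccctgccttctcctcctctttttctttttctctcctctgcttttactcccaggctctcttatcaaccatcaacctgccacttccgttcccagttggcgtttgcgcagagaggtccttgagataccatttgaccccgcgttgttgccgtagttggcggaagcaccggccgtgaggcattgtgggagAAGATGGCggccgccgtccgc
The Ndufb4 window held 3 NRF1 matches, 1 SP1 match and 1 match of the estrogen-related receptor letters. Sdhb held 3 SP1 matches and 1 ETS match that began at base 7 of the transcript. Ndufa9 held 1 YY1 match that began at base 30 of the transcript, and Cox7a2 held 1 SP1 match only.

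Over all members, NRF1 letters were in 15 of 47 promoters (31.9%), against 13.1% of the 4886 promoters of the named genes tested and 6.25% of all 32851 promoters. ETS letters were in 11 of 47 (23.4%), against 16.9% of tested genes and 8.86% of all promoters. YY1 letters were in 6 of 47 (12.8%), against 4.54% and 2.75% in the same backgrounds. SP1 letters were in 18 of 47 (38.3%), against 61.6% and 35.7%. The estrogen-related receptor letters were in 1 of 47 (2.13%), against 0.778% and 1.28%. The core letters AGAACA of the androgen response element were in 5 of 47 (10.6%), against 12.4% and 19.0%. In 1 promoter of the members a YY1 match overlapped these letters, and no other matches of different motifs overlapped. These matches describe the letters of the windows and say nothing of binding in these tissues.

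Most members had ratios below 0 in old mice and in young bone, and above 0 in young marrow, by small amounts. The median of the members' group means was -0.16 in old mice, -0.09 in young bone and 0.0867 in young marrow, with array medians spread by an SD of 0.135, 0.0585 and 0.111 in the same order (n = 3 arrays each). The same medians over all rows tested were -0.045, -0.0033 and -0.01. In old mice 49 of the 52 genes averaged below 0, in young bone 41 and in young marrow 10, against 58.5%, 50.8% and 52.3% of all rows. No member passed the test in any group, so these are levels of the measured ratio and not calls.

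**Figure D1:**
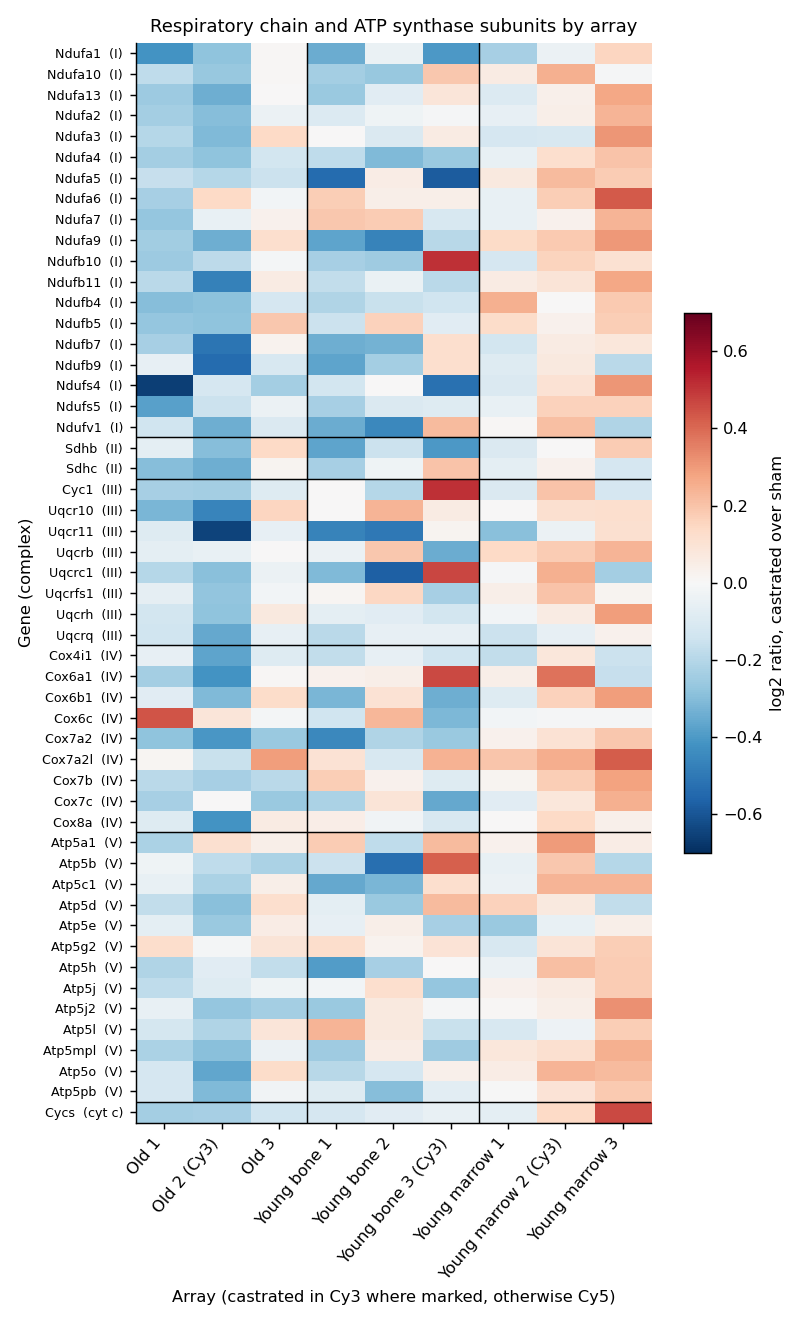
Deposited log2 ratio, castrated over sham, of each of the 52 subunit genes (rows, ordered by complex) on each of the 9 arrays (columns, old, young bone, young marrow); blue is below 0 and red above 0. Old replicates 1 and 2 are blue for 49 and 48 genes, and young marrow replicates 2 and 3 are red for 44 and 41.

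The arrays of a group were not alike. Member medians were -0.19, -0.28 and -0.015 on the old arrays, with 49, 48 and 27 of the 52 genes below 0. They were -0.17, -0.07 and -0.0675 on the young bone arrays, with 39, 33 and 30 genes below 0. They were -0.04, 0.10 and 0.18 on the young marrow arrays, with 31, 7 and 11 genes below 0. All 3 old and all 3 young bone medians were thus below 0, and those of young marrow lay on both sides. Old replicate 3 and young marrow replicate 1 lay close to each other, at -0.015 and -0.04, so the ranges of old mice and young marrow overlapped. The highest young bone median, -0.0675, lay just below the lowest of young marrow, -0.04. With each array centred on its own median, the members' group medians were -0.117 in old mice, -0.08 in young bone and 0.0867 in young marrow.

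**Figure D2:**
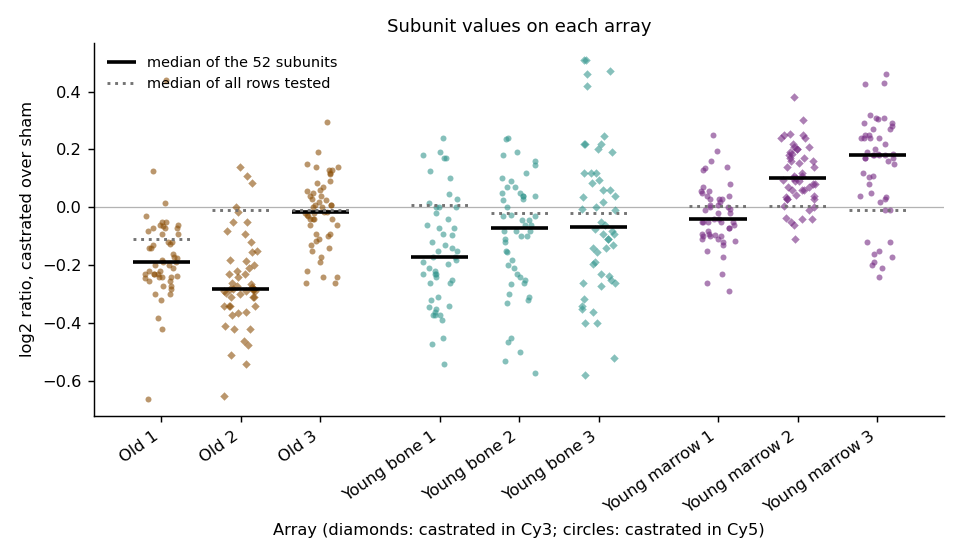
Each point is 1 of the 52 subunit genes on 1 array (log2 ratio, castrated over sham); black lines are the medians of the members and dotted grey lines the medians of all rows tested, with diamonds for arrays with the castrated mouse in Cy3. The members' median lies between -0.28 and -0.015 on the old arrays and between -0.04 and 0.18 on the young marrow arrays.

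How the ratio is read on the arrays with the castrated mouse in Cy3 bears on these medians. On the 6 arrays with the castrated mouse in Cy5, where both readings coincide, the members' median was -0.101 in old mice, -0.109 in young bone and 0.0725 in young marrow. On the single array per group with the castrated mouse in Cy3, it was -0.28, -0.0675 and 0.10 as deposited. Read as Cy5 over Cy3, the median of the members' fitted effects was 0.05 in old mice, -0.034 in young bone and 0.04 in young marrow. As castrated over sham the old median was thus below 0 in both dye orientations, and it was above 0 only when read as Cy5 over Cy3. Young bone stayed below 0 and young marrow above 0 under both readings. By complex, the fitted old medians read as Cy5 over Cy3 were 0.027, 0.109, 0.084, 0.110 and 0.055 for complexes I to V, all above 0. Complex IV turned to 0.064 in young bone. In young marrow complex II turned to 0.014 and complex V to -0.0067.

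The effect of castration was fitted with limma over all 7170 rows, with an effect for each group and a shared term for the dye, and adjusted p is the Benjamini-Hochberg value among all these rows. At an adjusted p under 0.05, 0 of 52 members were called in old mice, where 0.851% of all rows were called. In young bone it was 0 of 52, against 0.321% of all rows, and in young marrow 0 of 52, against 0.739%. In the average of the groups it was again 0 of 52, against 3.91%. At an unadjusted p under 0.05 the counts were 6, 6, 1 and 7 members, which is 11.5%, 11.5%, 1.92% and 13.5% of them, against 18.5%, 8.52%, 10.3% and 16% of all rows. All the members counted in old mice, in young bone and in the average had fitted values below 0, and the single one in young marrow, Cox7a2l, was above 0. The count of 0 rested on the arrays used and their weight. Without old replicate 3, Uqcr10 was called in old mice (-0.39, limma adjusted p = 0.034), where 1150 of all rows were then called. With arrays weighted by their quality 6 members were called in the average and 3 in young marrow. In that setting 781 of all rows were called in the average and 1301 in young marrow, so these calls were not particular to the members. With the replicate number as a block, Ndufa1 was called in the average (-0.23, limma adjusted p = 0.048), among 271 of all rows.

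Complex I, the NADH dehydrogenase, had a median of -0.191 in old mice, -0.14 in young bone and 0.09 in young marrow, with 19, 16 and 2 of its 19 genes averaging below 0. Array medians of complex I in old mice ran from -0.28 to -0.015 and in young marrow from -0.05 to 0.185. Ndufb4, an accessory subunit of the membrane arm, had -0.30, -0.285 and -0.115 in old mice, -0.21, -0.155 and -0.14 in young bone and 0.25, 0.005 and 0.185 in young marrow. These are means of 2 features that disagree in young marrow, where 1 feature had -0.22, 0.04 and 0.16 and the other 0.72, -0.03 and 0.21. All old and young bone values were below 0 for both features, but neither feature was above 0 on every young marrow array, and the first overlapped the other groups there. Its fitted effect in old mice was -0.25 (SE 0.086, unadjusted p = 0.016, limma adjusted p = 0.22).

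Ndufa9, an accessory subunit near the coenzyme Q site, had -0.245, -0.34 and 0.115 in old mice, -0.37, -0.465 and -0.195 in young bone and 0.135, 0.185 and 0.305 in young marrow. The young bone arrays lay wholly below the young marrow arrays, and 1 old array was above 0. The fitted effect was -0.35 in young bone (SE 0.11, limma adjusted p = 0.31) and 0.20 in young marrow (SE 0.11, limma adjusted p = 0.56). Both features of the gene moved alike over the arrays (r = 0.938 over 9 arrays, given as a description).

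Ndufa5, an accessory subunit of the peripheral arm, had -0.16, -0.20 and -0.15 in old mice, -0.54, 0.05 and -0.58 in young bone and 0.07, 0.22 and 0.18 in young marrow. Old values were tight (-0.17 ± 0.026, SD, n = 3) and those of young bone were not (-0.357 ± 0.353, SD, n = 3), because replicate 2 stood above 0. The fitted effect in young bone was -0.37 (SE 0.12, unadjusted p = 0.011, limma adjusted p = 0.33).

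Ndufa1, a small membrane-arm subunit, had the smallest p of complex I in the average of the groups. Its values were -0.42, -0.28 and 0.01 in old mice, -0.345, -0.045 and -0.40 in young bone and -0.23, -0.04 and 0.15 in young marrow, so that 7 of 9 arrays were below 0. The average effect was -0.19 (SE 0.070, unadjusted p = 0.020, limma adjusted p = 0.20). Ndufa4, first assigned to complex I and since placed with complex IV, had -0.24, -0.28 and -0.13 in old mice, -0.18, -0.31 and -0.26 in young bone and -0.05, 0.12 and 0.20 in young marrow. Both of its lower groups lay wholly below young marrow, and its average effect was -0.13 (SE 0.053, limma adjusted p = 0.25). Counting Ndufa4 in complex IV left complex I medians of the same sign in every group.

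Complex II, succinate dehydrogenase, was measured through 2 genes. Sdhb, the iron-sulfur subunit, had -0.07, -0.30 and 0.14 in old mice, -0.37, -0.15 and -0.40 in young bone and -0.10, 0.00 and 0.18 in young marrow. Only young bone was below 0 on all of its arrays, with a fitted effect of -0.34 (SE 0.099, unadjusted p = 0.0070, limma adjusted p = 0.29). Sdhc, a membrane anchor, had -0.30, -0.34 and 0.02 in old mice, -0.23, -0.03 and 0.20 in young bone and -0.07, 0.03 and -0.12 in young marrow, with overlap between all groups and a fitted effect of -0.19 in old mice (SE 0.11, limma adjusted p = 0.33).

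Complex III, the cytochrome bc1 complex, had a median of -0.182 in old mice, -0.08 in young bone and 0.0383 in young marrow, with 8, 6 and 3 of its 8 genes below 0. Uqcr11, its smallest subunit, had the largest average effect of the members in size. It had -0.09, -0.65 and -0.06 in old mice, -0.47, -0.50 and 0.02 in young bone and -0.29, -0.04 and 0.11 in young marrow. The average of -0.22 (SE 0.089, unadjusted p = 0.033, limma adjusted p = 0.25) held old replicate 2 as its lowest value, far below the other 2 old arrays. Uqcrq, a small subunit of the membrane part, was below 0 on 8 of 9 arrays but by small amounts, with group means of -0.187, -0.103 and -0.06 in old mice, young bone and young marrow and an average effect of -0.13 (SE 0.054, limma adjusted p = 0.28). Uqcrb, which lies at the coenzyme Q site, had 0.14, 0.18 and 0.24 in young marrow, above every old value (-0.07, -0.05 and 0.00), with a fitted effect of 0.16 in young marrow (SE 0.098, limma adjusted p = 0.62).

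Cycs, the electron carrier cytochrome c, had -0.24, -0.23 and -0.14 in old mice, -0.12, -0.08 and -0.05 in young bone and -0.07, 0.14 and 0.46 in young marrow. The old arrays lay below all the arrays of both young groups. The fitted effect in old mice was -0.21 (SE 0.11, limma adjusted p = 0.31).

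Complex IV, cytochrome c oxidase, had a median of -0.163 in old mice, -0.0733 in young bone and 0.0867 in young marrow, with 7, 6 and 2 of its 9 genes below 0. Cox7a2, the widely expressed form of subunit VIIa, had the smallest p of all members in the average, in old mice and in young bone. Its ratios were -0.28, -0.41 and -0.26 in old mice, -0.45, -0.21 and -0.26 in young bone and 0.03, 0.10 and 0.19 in young marrow. Every old and young bone array was below 0 and every young marrow array above. The fitted effect was -0.32 in old mice (SE 0.089, unadjusted p = 0.0046, limma adjusted p = 0.16), -0.31 in young bone (SE 0.089, unadjusted p = 0.0055, limma adjusted p = 0.28) and 0.10 in young marrow (SE 0.089, limma adjusted p = 0.71). Its average was -0.18 (SE 0.053, unadjusted p = 0.0076, limma adjusted p = 0.11). Read as Cy5 over Cy3, the old effect was 0.016 and the average 0.013.

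Cox7a2l, a relative of Cox7a2 that takes part in joining complexes III and IV into supercomplexes, had ratios on both sides of 0 in old mice and in young bone. It had 0.015, -0.155 and 0.295 in old mice, 0.10, -0.11 and 0.245 in young bone and 0.195, 0.255 and 0.425 in young marrow. It was above 0 on 7 of 9 arrays, and its young marrow effect of 0.29 (SE 0.11, unadjusted p = 0.029, limma adjusted p = 0.40) was the largest of the members in that group. No test of the difference between the 2 genes was made.

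The other widely expressed forms of complex IV did not share a direction. Cox4i1, which binds ATP at the matrix side, was below 0 on 8 of 9 arrays (means of -0.173, -0.123 and -0.08 in old mice, young bone and young marrow), with an average effect of -0.13 (SE 0.058, limma adjusted p = 0.31). Cox6a1 had -0.24, -0.42 and 0.01 in old mice, 0.03, 0.04 and 0.46 in young bone and 0.04, 0.38 and -0.16 in young marrow. Its old arrays lay wholly below those of young bone. Cox6b1, near the cytochrome c docking side, had means of -0.0867, -0.187 and 0.12 in the same order of groups, and Cox8a had -0.15, -0.03 and 0.0583, neither passing the test (limma adjusted p = 0.70 and 0.72 in the average). The heart, muscle, lung or testis forms Cox4i2, Cox6a2, Cox6b2, Cox7a1 and Cox8b were not among the genes tested here.

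Complex V, ATP synthase, had a median of -0.113 in old mice, -0.0833 in young bone and 0.0917 in young marrow, with 12, 10 and 2 of its 13 genes below 0. Atp5mpl, a small subunit of the membrane part, had -0.22, -0.29 and -0.04 in old mice, -0.25, 0.05 and -0.25 in young bone and 0.08, 0.11 and 0.25 in young marrow. Both other groups lay below young marrow, and the fitted old effect was -0.20 (SE 0.093, limma adjusted p = 0.27). Atp5h, a subunit of the peripheral stalk, had -0.21, -0.08 and -0.17 in old mice, -0.39, -0.23 and 0.00 in young bone and -0.04, 0.21 and 0.18 in young marrow, with a fitted effect of -0.18 in young bone (SE 0.088, limma adjusted p = 0.67).

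Atp5e, the epsilon subunit of the central stalk, had group means near each other, at -0.0933, -0.0833 and -0.09 in old mice, young bone and young marrow, and an average effect of -0.11 (SE 0.058, limma adjusted p = 0.40). Atp5a1, the catalytic-head alpha subunit, was above 0 on 7 of 9 arrays and had a fitted effect of 0.16 in young marrow (SE 0.097, limma adjusted p = 0.61), but -0.11 when read as Cy5 over Cy3. The inhibitor Atp5if1 was not among the genes tested here.

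**Figure D3:**
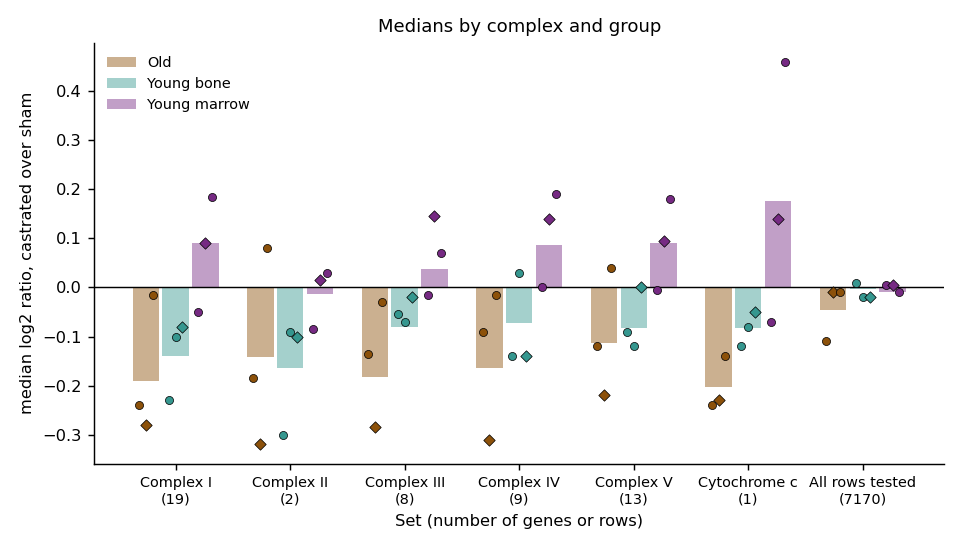
Bars are medians over genes of the group means of the log2 ratio, castrated over sham, for each complex, cytochrome c and all rows tested, with old, young bone and young marrow from left to right; points are the 3 array medians of the group, diamonds for castrated in Cy3. For complexes I, III, IV and V the old and young bone bars lie below 0 and the young marrow bar above, while complex II, with 2 genes, is at -0.0133 in young marrow.

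Differences between the groups' castration effects were tested in the same fit. Old minus young marrow was below 0 for 50 of 52 members (median -0.223), young bone minus young marrow for 44 (median -0.171) and old minus young bone for 40 (median -0.0525). Over all rows the medians of these differences were -0.0567, 0.0033 and -0.0268, with 58.8%, 49.1% and 55.5% below 0. With limma 0 of 52 members were called for each of these differences, against 0%, 0% and 0.0139% of all rows. At an unadjusted p under 0.05 there were 9, 8 and 1 members, 17.3%, 15.4% and 1.92% of them, against 14.7%, 4.67% and 6.82% of all rows. Without old replicate 3, Ndufa9 was the 1 member called in old minus young marrow (-0.51, limma adjusted p = 0.045), where 763 of all rows were then called. Read as Cy5 over Cy3, the members' medians of the 3 differences, in the same order, were 0.0267, -0.0783 and 0.0833. Under that reading 23, 33 and 15 of 52 members were below 0, against 52%, 49.6% and 51.8% of all rows. The sign of the median thus turned for both differences that involve old mice. The differences against young marrow share its arrays, so they are not separate evidence of each other.

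The smallest p among these differences was that of Ndufa9 in young bone minus young marrow (-0.55, SE 0.15, unadjusted p = 0.0041, limma adjusted p = 0.93). Cox7a2 had -0.42 in old minus young marrow (SE 0.12, unadjusted p = 0.0062, limma adjusted p = 0.34) and -0.41 in young bone minus young marrow (SE 0.12, unadjusted p = 0.0071, limma adjusted p = 0.93). Ndufa5 had -0.51 in young bone minus young marrow (SE 0.17, limma adjusted p = 0.93). In old minus young bone only Cox6a1 reached an unadjusted p under 0.05 (-0.39, SE 0.18, unadjusted p = 0.048, limma adjusted p = 0.68).

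By ranges alone, 15 of 52 members (28.8%) had every old array below every young marrow array, against 11.7% of the 6182 rows with values on all these arrays, and 0 had the opposite order, against 9.54%. For young bone below young marrow it was 12 of 52 (23.1%), against 6.89% of rows, and 0 in the opposite order, against 3.96%. For old below young bone it was 3 (Cox6a1, Cox7b and Cycs), near the 4.7% of rows. Members below 0 on every old array and above 0 on every young marrow array numbered 8 (15.4%, against 3.41%): Ndufa5, Ndufb4, Uqcrfs1, Cox7a2, Cox7b, Atp5j, Atp5j2 and Atp5mpl. For young bone and young marrow they numbered 4 (7.69%, against 2.11%): Ndufa9, Ndufb11, Ndufb4 and Cox7a2. Cox7a2, measured by 1 feature, stood in both lists, as did Ndufb4 through the mean of its features, of which neither met the rule alone. Uqcrfs1 (the Rieske protein), Cox7b, Atp5j, Atp5j2 and Ndufb11 are named here after their values were seen.

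**Figure D4:**
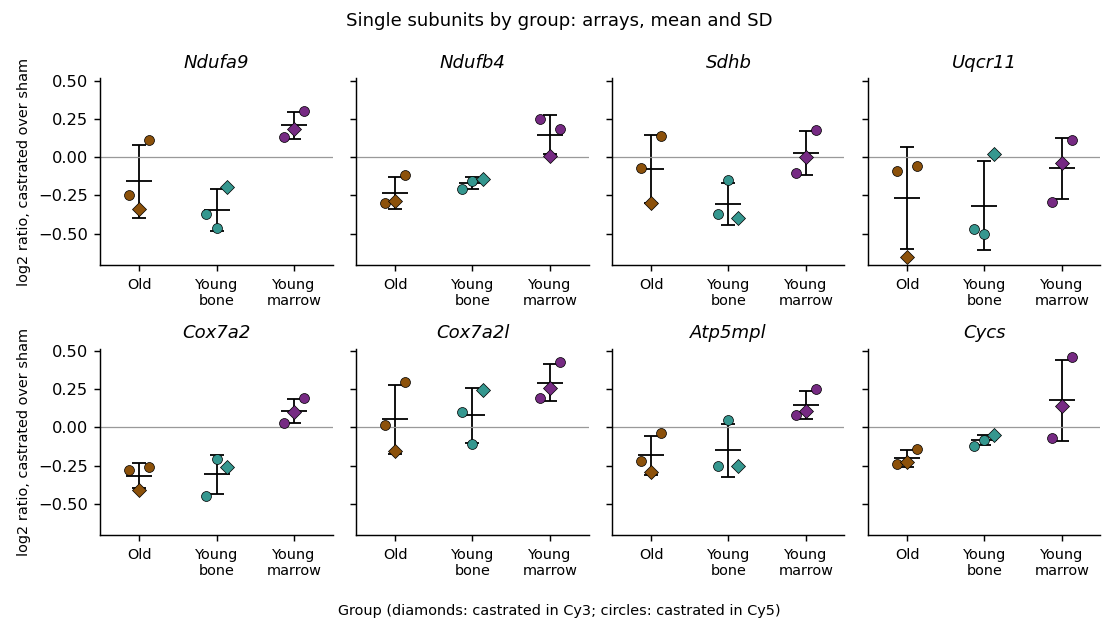
Log2 ratio, castrated over sham, of 8 subunits on each array by group (old, young bone, young marrow), with the mean and SD of the 3 arrays and diamonds for castrated in Cy3. Cox7a2 lies between -0.45 and -0.21 on the old and young bone arrays and between 0.03 and 0.19 on the young marrow arrays, while Cox7a2l is above 0 on 7 of 9.

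Some members went against the common order on single arrays, and these were chosen after their values were seen. Uqcrc1, a core protein of complex III, had -0.31 and -0.57 on young bone replicates 1 and 2 and 0.47 on replicate 3, where the castrated mouse was in Cy3. Atp5b, the catalytic beta subunit, had -0.15, -0.53 and 0.42 on the same arrays, and Ndufv1 had -0.35, -0.45 and 0.22. In young bone these genes carried opposite signs between dye orientations, while each was below 0 on every old array. Over all groups the dye terms were -0.19 for Uqcrc1 and -0.17 for Atp5b. With limma 0 of 52 members had a called dye term, with 0 at an unadjusted p under 0.05 against 6.46% of all rows. Read as Cy5 over Cy3, 5 members reached an unadjusted p under 0.05 in young bone (Ndufb10, Ndufv1, Uqcrc1, Atp5b and Atp5c1), all below 0. This is 9.62% of members, against 6.56% of rows in either direction and 3.91% of rows below 0. Under that reading limma called 0 of 52 members, and 0% of all rows, in each group, the average and each difference.

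**Figure D5:**
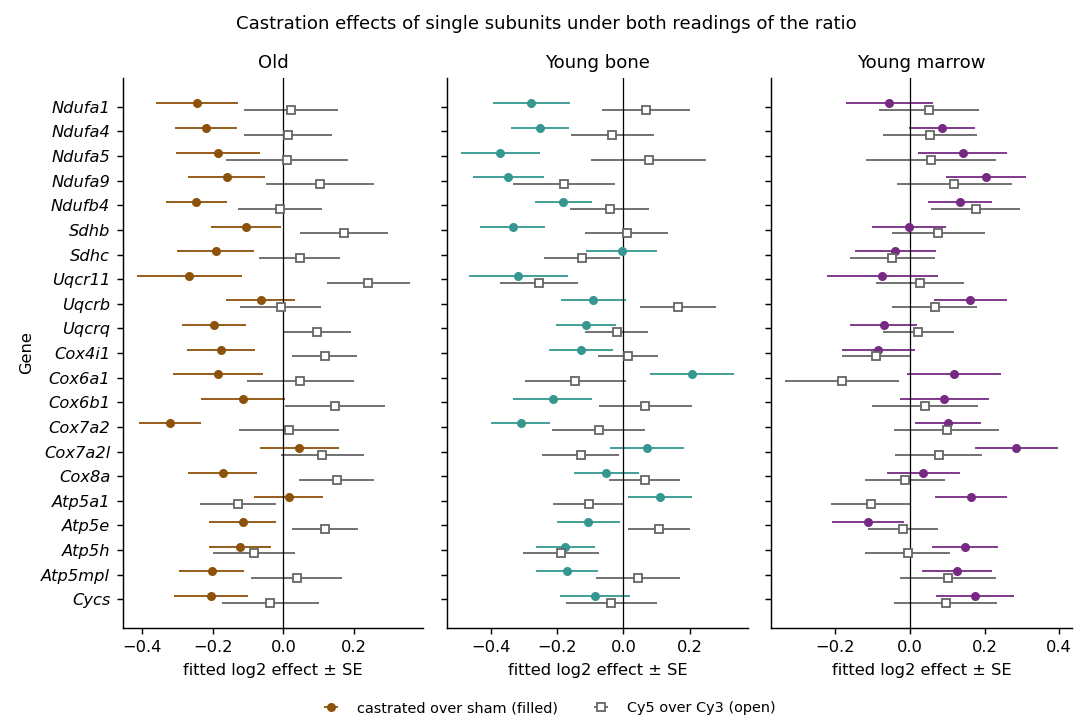
Fitted log2 castration effect with its standard error for 21 subunits in old mice, young bone and young marrow, under castrated over sham (filled) and under Cy5 over Cy3 (open). For Cox7a2 in old mice the effect is -0.32 under castrated over sham and 0.016 under Cy5 over Cy3, and Ndufa9 keeps its sign in both young groups.

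Members with 1 sign on every array of a group were counted as well. In old mice 24 of 52 members were below 0 on every array (46.2%, against 24.6% of rows) and 0 above 0 on every array (against 16.7%). In young bone 14 were below 0 on every array (26.9%, against 13.9%) and 3 above (5.77%, against 10.4%). In young marrow 15 were above 0 on every array (28.8%, against 20.2%) and 1, Cox6c, below (1.92%, against 17.9%). Cox6c met this only as the mean of features that disagree. There 1 feature had -0.06, 0.01 and 0.24 and the other 0.02, -0.03 and -0.26, so neither met the rule alone. No member kept 1 sign on all 9 arrays, against 2.41% of rows below 0 throughout and 1.89% above.

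Repeat features tell how far single values can be trusted. Of the 52 genes, 17 had more than 1 feature, giving 19 pairs. The correlation of a pair over its arrays had a median of 0.854 and was above 0.5 for 16 pairs, with a median mean absolute difference of 0.0944. Cox6c (r = -0.233), Atp5g2 (r = -0.589, 8 arrays) and Ndufb4 (r = 0.218) had features that did not track each other, so their gene means are uncertain. These correlations are over 9 arrays unless stated and describe shared arrays and sequence.

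None of the other mitochondrial genes listed was called in a group or in the average. At an unadjusted p under 0.05 the shares of all rows were 18.5%, 8.52% and 10.3% in old mice, young bone and young marrow. Assembly factors and subunits outside the rule, which build or join the complexes, had fitted medians of -0.0836 in old mice, -0.0339 in young bone and -0.0092 in young marrow, with 0 of the 17 tested (of 52 listed) called by limma and 3, 1 and 0 at an unadjusted p under 0.05. Enzymes of the tricarboxylic acid cycle and pyruvate dehydrogenase, which feed the chain with NADH, had -0.0774, -0.0094 and 0.0996, with 0 of the 10 tested (of 20 listed) called and 0, 1 and 0 at the unadjusted threshold. Regulators of respiratory genes had -0.065, 0.0072 and 0.085, with 0 of the 9 tested (of 16 listed) called and 1, 0 and 0 at the unadjusted threshold. Among them Gabpa, a GABP subunit, had group means of -0.20, -0.09 and 0.157, and Yy1 had -0.243, -0.0617 and 0.0533, in old mice, young bone and young marrow. Only these are named of the 9 tested, and the list as a whole did not share their sign in young bone, where its fitted median was 0.0072. A link of either gene to the members' values was not tested.

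Glycolysis, the cytosolic route to pyruvate and ATP, was below 0 in all groups, with fitted medians of -0.0834 in old mice, -0.223 in young bone and -0.153 in young marrow. All 8 genes tested (of 17 listed) had average effects below 0 (median -0.173), and 1 fell, against 1.95% of all rows down in the average. This was Aldoa, an aldolase, with an average effect of -0.25 (limma adjusted p = 0.050, below the threshold before rounding). The young marrow medians of glycolysis and of the respiratory subunits thus had opposite signs, a difference that was not tested.

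Marker genes of other cells moved with castration too, and their part in the members' values was not tested. Skeletal muscle markers (7 of 20 listed were tested) had array medians of 0.93, 0.11 and 0.23 in old mice, -1.31, -0.19 and -0.53 in young bone and -0.09, 0.04 and 0.02 in young marrow. The muscle median was thus above 0 in old mice, where the members were mostly below 0. It was below 0 in young bone, where the members were too. In no group did limma call a muscle gene. At an unadjusted p under 0.05 there were 2, 6 and 0 muscle genes, against 18.5%, 8.52% and 10.3% of all rows. Granulocyte markers (7 of 16 tested) had medians of -0.537, -0.503 and -0.481 in old mice, young bone and young marrow, and all 7 fell in the average. B lymphocyte markers (8 of 15 tested) had medians of 0.916, 0.811 and 0.952, and all 8 rose in the average, against 1.95% of all rows in each direction. Both lists had medians of 1 sign in all 3 groups, unlike the members.

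Adipocyte markers (4 of 12 tested) had fitted medians of 1.08 in old mice, 0.733 in young bone and 0.334 in young marrow, and 3 rose in the average. Erythroid markers (6 of 14 tested) had -0.106, -0.0094 and 0.0588, with 0 called and 1, 0 and 0 at the unadjusted threshold. Over all rows 18.5%, 8.52% and 10.3% were at that threshold in the same groups. Osteoblast and bone matrix markers (7 of 14 tested) had 0.0536, 0.54 and 0.365 with 0 called (0, 5 and 3 at the unadjusted threshold), and osteoclast markers (6 of 15 tested) had -0.145, -0.0875 and -0.134 with 1 gene down in the average. Of the brown adipocyte markers only 1 of 5, Dio2, was tested, with an average of -0.10. Ratios do not give levels, so the labelled tissues could not be checked against the level of their markers, and which defining markers were near 0 is not known.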

How the data were processed

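Each of 9 dual-channel arrays compared a castrated with a sham-operated C57BL/6 mouse. The deposited values are log ratios, read here as log2. The log base, the ratio's direction, background treatment and normalization are not given in the sources used here. RNA was reverse transcribed with aminoallyl dUTP and labelled with Cy3 or Cy5, per the labels' protocols. Intensities were not used here. How far features stood above background is thus not known, and precision is limited by having 3 arrays a group.

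Of 11552 features, 8050 had 1 gene in the platform annotation, 672 several and 2830 none. Gene IDs of 7880 matched the RefSeq table and 0 symbols changed. Features with values on at least 2 arrays of each group were kept (8885) and averaged per gene and array, giving 7170 rows, 4775 of them named genes. Features of several genes or none stayed as rows of their own. The Atp5g2 mean lacks 1 of its 2 features on 1 array. limma 3.58.1 in R 4.3.3 fitted 1 coefficient per group and a dye term (5 residual degrees of freedom), with Benjamini-Hochberg adjustment over all rows and a threshold of 0.05. The script was tested on simulated data.

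Named genes were Cox7a2, Ndufa5 and Sdhb, the member with the smallest p per complex in the average and in each group, tissue isoforms and their partners, Ndufa4 and Atp5if1. Members, lists and tests were chosen with earlier results of these data known.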

Additional observations from a re-analysis of the deposited data

How the results depend on the processing

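The count of 0 members called held in every comparison under the Cy5 over Cy3 reading, without the dye term, with unswapped arrays only, with arrays centred or also scaled, with features on all 9 arrays and with platform symbols. Array weights, which ran from 0.415 (old replicate 1) to 4.29 (young marrow replicate 2), gave 6 members in the average (Cox7a2, Ndufa1, Ndufb9, Sdhb, Uqcr11 and Uqcrq, all below 0) and 3 in young marrow (Cox7a2l, Ndufa9 and Uqcrb, all above 0). The replicate block gave 1 member in the average, Ndufa1 (-0.23, limma adjusted p = 0.048), and 0 in old minus young marrow. Deviations of same-numbered arrays correlated at 0.608, 0.279 and 0.295 between old mice and young marrow. They correlated at -0.0433, -0.111 and 0.412 between old mice and young bone, and at -0.0962, -0.368 and -0.0637 between young bone and young marrow. Arrays of different number ran from -0.533 to 0.422. Same-numbered old and young marrow arrays also had the castrated mouse in the same dye, so number and dye cannot be told apart there. No pairing is read from these values. Leaving out each array gave 0 to 1 members in old mice and 0 to 1 in old minus young marrow. The single calls came without old replicate 3 and were Uqcr10 (-0.39, limma adjusted p = 0.034) in old mice and Ndufa9 (-0.51, limma adjusted p = 0.045) in the difference. Over all rows, the 280 calls in the average became 0 under the Cy5 over Cy3 reading, 70 with unswapped arrays only and 781 with array weights, and ran from 74 (without young marrow replicate 2) to 463 (without old replicate 3). The 61 calls in old mice became 0, 5 and 136 under the same settings, 8 with scaled arrays, 4 without old replicate 2 and 1150 without old replicate 3. The 23 in young bone became 0, 0 and 57, and 1 with scaled arrays, and ran from 0 to 64. The 53 in young marrow became 0, 0 and 1301, and 95 with scaled arrays, and ran from 0 to 108. The 0 calls in old minus young marrow became 7 with array weights and 763 without old replicate 3.

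The median of the members' group means in old mice was 0.0333 under the Cy5 over Cy3 reading (0.05 as the median of fitted effects), and leaving out an array moved it between -0.233 and -0.10. Young bone then ran from -0.11 to -0.0625 and young marrow from 0.0475 to 0.13. With only members of 1 feature, a setting added after the data were seen, the old median was -0.173. Under the Cy5 over Cy3 reading the sign turned for average effects of Atp5e (0.0683), Cox4i1 (0.0133), Cox6a1 (-0.0933), Cox6b1 (0.0842), Cox7a2 (0.0133), Cox8a (0.0671), Cycs (0.0075), Ndufa1 (0.0467), Ndufa4 (0.0108), Ndufa5 (0.0475), Sdhb (0.0858) and Uqcr11 (0.0033). It turned in old mice for Atp5mpl (0.0375), Cox7a2 (0.0156), Sdhc (0.0464) and Uqcrq (0.0958), in young bone for Sdhb (0.0092) and in young marrow for Atp5a1 (-0.106). With unswapped arrays only, the averages of Cox6a1 (-0.0467), Cox6b1 (0.005) and Cox8a (0.0042) turned. When an array was left out, the average of Cox8a ran from -0.127 to 0.0048 and turned without old replicate 2, and that of Cox6a1 ran from -0.0167 to 0.170 and turned without young bone replicate 3 or young marrow replicate 2. The cause was not tested in any of these.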
